A study of Mus musculus with 9 samples.

Results

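The genes described here are 9 genes of nucleic acid sensing, listed by name and looked up by gene identifier among the 35288 identifiers of the table: Ddx58, Ifih1, Dhx58, Tlr3, Zbp1, Mavs, Tmem173, Eif2ak2 and Adar. All 9 were found in the table, and 8 passed the filter on low counts, the exception being Tmem173. The list was not picked by measured values, although earlier results of these data were known when it was drawn up.

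Cells carry receptors that bind RNA or DNA in places or forms where the cell's own nucleic acids are normally not found. Ddx58 encodes RIG-I and Ifih1 encodes MDA5, helicases that bind viral or endogenous double-stranded RNA in the cytosol and signal through Mavs, an adaptor on mitochondria, to the kinases and transcription factors that switch on type I interferon genes. Viral mimicry is the name used where the same receptors are triggered by the cell's own transcripts, such as those of endogenous retroviruses, a response studied in tumour cells treated with drugs that open chromatin.

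T15 is a murine cell line from a Smarcb1-negative peripheral T-cell lymphoma (PTCL), and every group consisted of these cells. The 9 RNA-seq libraries were 3 of control cells, 3 of cells treated with SAHA (vorinostat, an inhibitor of histone deacetylases) at 1 µM over 72 h, and 3 of Smarcb1-RE cells, in which a lentiviral plasmid re-expressed Smarcb1 under doxycycline (Dox, 0.5 µg/µl, 72 h) after G418 selection. Smarcb1 is a core subunit of the SWI/SNF (BAF) chromatin remodelling complex. For this cell line, the paper describes a strong induction of apoptosis, with most cells dead, at its higher SAHA concentrations. The dose used for sequencing was among those concentrations. How far dying cells or a surviving remainder shaped the SAHA values was not tested. The study's text calls the 3 sequenced controls untreated, while the labels mention a vehicle and a plasmid without Smarcb1 as controls. Against untreated cells, transduction, selection and Dox cannot be told apart from Smarcb1 itself. Several stable clones were made according to the methods, and which of them were sequenced is not stated.

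The promoter windows of members that moved differently are shown to place the letters of an interferon response element beside the values that follow. Windows of 250 bases before and 50 bases after an annotated start were available for 6 of the 9 members from RefSeq (GRCm38.p6). Both strands were searched for GAAANNGAA, the core of the interferon-stimulated response element (ISRE), and for TTCNNNGAA, the form bound by STAT dimers. The windows of Ddx58 (chr4:40239776-40240075, minus strand), Ifih1 (chr2:62646206-62646505, minus strand), Eif2ak2 (chr17:78882523-78882822, minus strand) and Mavs (chr2:131233813-131234112, plus strand) read 5′ to 3′ as follows, with ISRE core matches of either strand in capitals.
Ddx58: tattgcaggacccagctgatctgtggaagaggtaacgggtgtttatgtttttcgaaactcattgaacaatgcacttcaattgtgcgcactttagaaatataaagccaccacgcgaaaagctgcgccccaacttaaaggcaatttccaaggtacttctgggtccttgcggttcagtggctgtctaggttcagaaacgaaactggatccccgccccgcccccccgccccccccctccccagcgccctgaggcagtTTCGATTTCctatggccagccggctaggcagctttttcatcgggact
Ifih1: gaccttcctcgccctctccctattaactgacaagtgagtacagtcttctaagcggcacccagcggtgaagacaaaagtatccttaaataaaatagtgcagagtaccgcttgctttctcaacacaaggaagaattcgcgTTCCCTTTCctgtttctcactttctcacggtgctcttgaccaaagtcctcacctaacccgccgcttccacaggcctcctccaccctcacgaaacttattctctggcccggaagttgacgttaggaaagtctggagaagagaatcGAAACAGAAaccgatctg
Eif2ak2: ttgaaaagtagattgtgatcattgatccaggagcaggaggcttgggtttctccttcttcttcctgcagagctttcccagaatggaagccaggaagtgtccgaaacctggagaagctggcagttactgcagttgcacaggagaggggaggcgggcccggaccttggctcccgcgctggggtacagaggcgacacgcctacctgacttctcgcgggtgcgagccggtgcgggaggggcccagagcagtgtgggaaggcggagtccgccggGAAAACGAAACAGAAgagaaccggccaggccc
Mavs: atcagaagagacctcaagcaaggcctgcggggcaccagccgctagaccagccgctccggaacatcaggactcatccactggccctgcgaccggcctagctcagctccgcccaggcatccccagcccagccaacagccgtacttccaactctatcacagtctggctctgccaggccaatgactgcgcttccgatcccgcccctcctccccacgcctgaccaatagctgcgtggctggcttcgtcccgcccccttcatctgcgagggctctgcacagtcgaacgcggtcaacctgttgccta

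With the annotated start counted as 0, Ddx58 held 1 ISRE core match, on the opposite strand, whose first base lay at 3. Ifih1 held 2 matches, with first bases at -112 and 32, and Eif2ak2 held 2 matches with first bases at 18 and 24 that share letters with each other. No match of either motif was found in the Mavs window or in the Tlr3 window (chr8:45410331-45410630, minus strand). Adar had 3 windows, of which only the one inside the gene (chr3:89730468-89730767, plus strand) held ISRE core matches, with first bases at -249 and 33. The STAT form was found once in the Eif2ak2 window, at -178, and once in the same Adar window, at 22, and overlapped no ISRE core match in either. Across the reference table, 8.56% of 32851 windows held the ISRE core and 8.3% held the STAT form, which corresponds to 9.76% and 9.55% of 27025 genes. A match describes letters and was not tested as a binding site. The relation of matches to the changes of these genes was not tested either.

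Library totals ranged from 24564919 to 24941494 estimated counts in control, from 23403494 to 24189992 in SAHA and from 20900477 to 21911177 in Smarcb1-RE libraries, so that 3 counts, used as the floor, correspond to between 0.12 and 0.144 CPM, the counts of a gene scaled to the library size after TMM normalization. The Smarcb1 counts were 2, 5 and 8 in control, 7, 13 and 3 with SAHA, and 151, 147 and 142 in Smarcb1-RE libraries, high only where the labels state re-expression. The T cell receptor genes Cd3e, Cd3d, Cd3g and Cd247 were expressed throughout, whereas Cd2, Cd5 and Cd4 had at most 3 counts in every library. Among markers of other cells, the summed level of 6 B cell genes was 92.7 to 95.9 CPM in control, 101 to 112 CPM in SAHA and 155 to 163 CPM in Smarcb1-RE libraries with Cd79b at or under 3 counts, and the sum of 8 myeloid genes was 2.11 to 2.67, 5.89 to 7.45 and 1.9 to 1.98 CPM with Csf1r, Adgre1, Cd14 and S100a8 at or under 3 counts. Most of the B cell sum was 1 gene, Ebf1, at 92.8 ± 1.73 CPM in control, 106 ± 5.48 CPM in SAHA and 152 ± 4.82 CPM in Smarcb1-RE. Most of the myeloid sum was Cd68, at 1.69 ± 0.255, 6.75 ± 0.894 and 1.65 ± 0.0743 CPM in the same order. The part of these markers in the results was not tested. Control replicate 1 differed more from the other control libraries than any other replicates did from each other. In bulk RNA, fewer cells expressing a gene and less RNA per cell cannot be told apart, and the study describes the replicates as biological without saying how the cultures were kept apart, so that p-values measure only the spread between these libraries of 1 cell line.

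Of the 9 members, 6 were higher and none was lower in SAHA-treated cells than in control. The higher ones were the RNA helicases Ddx58, Ifih1 and Dhx58, the endosomal receptor Tlr3, the Z-nucleic acid sensor Zbp1 and the kinase gene Eif2ak2. The steepest of these was Tlr3 at 2.69-fold and the shallowest Zbp1 at 1.29-fold, while Mavs and Adar did not pass the test. The background for these counts is high, since 32.6% of all 13697 tested genes were called higher and 34.3% lower in SAHA (edgeR's quasi-likelihood test, Benjamini-Hochberg adjusted p under 0.05). The median log2 fold change of the 8 tested members was 0.51, beside 0.0027 for all tested genes.

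Smarcb1-RE cells showed a mixed pattern. Ddx58, Tlr3, Dhx58, Zbp1 and Eif2ak2 were higher than in control, whereas Ifih1 and Mavs were lower, and Adar did not pass the test. Here 39.2% of all tested genes were called higher and 38.6% lower, and the members' median log2 fold change was 0.23, beside 0.014 for all genes. Set directly against SAHA, Smarcb1-RE cells had more Ddx58 and less Ifih1, Dhx58, Mavs and Eif2ak2, with 37.7% of all genes called higher and 36.8% lower. The members' median in that comparison was -0.28, beside 0.0172. With library totals alone as scaling, the median of all genes in Smarcb1-RE against control was 0.17, 61.0% of the called genes were higher in place of 50.4%, and against SAHA 62.1% in place of 50.6%, so values and list medians of Smarcb1-RE near 0 depend on the scaling. Both comparisons with control used the same 3 control libraries, so their values are given side by side and are not independent of each other.

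**Figure D1:**
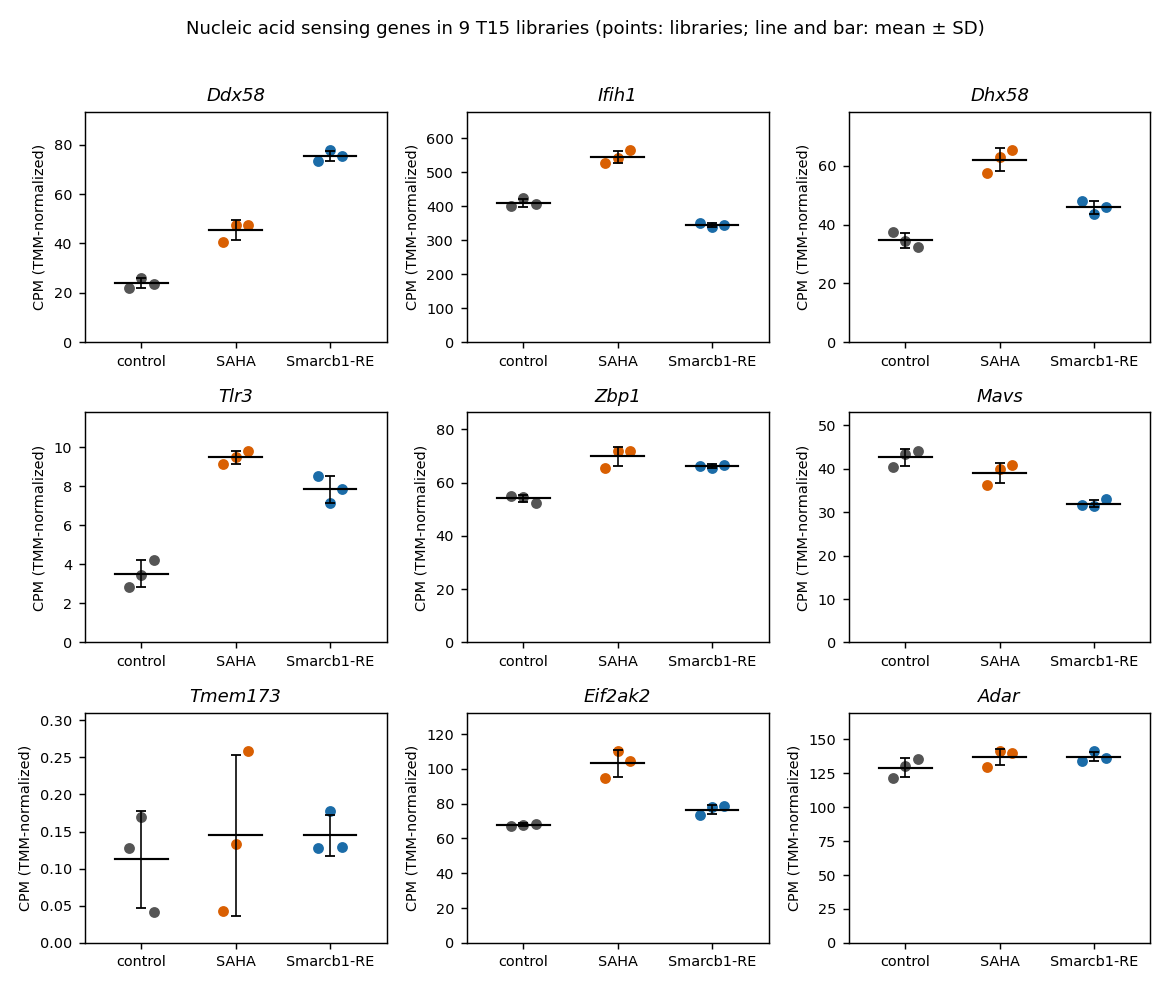
Level of each of the 9 genes in CPM (TMM-normalized, linear axes from 0, a separate scale per gene) in the 3 control, 3 SAHA and 3 Smarcb1-RE libraries. Points are libraries, lines and bars the mean ± SD. Ddx58 rises in steps from control (22.1 to 26.2 CPM) to SAHA (40.6 to 47.7 CPM) and Smarcb1-RE (73.3 to 77.8 CPM), Ifih1 is highest in SAHA and lowest in Smarcb1-RE, and Tmem173 stays under 0.3 CPM in all 9 libraries.

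Ddx58 (RIG-I, which recognizes short double-stranded RNA with a triphosphate end; ENSMUSG00000040296, chromosome 4, 40203773 to 40239828, minus strand, GRCm38) was the member that differed most between Smarcb1-RE and control. Its level was 22.1, 26.2 and 23.4 CPM in the control libraries, 40.6, 47.6 and 47.7 CPM in SAHA and 73.3, 77.8 and 75.3 CPM in Smarcb1-RE. The 3 groups did not overlap, and Smarcb1-RE libraries were the highest. Its log2 fold change was 0.92 (SE 0.074, adjusted p = 3.04e-07, edgeR) in SAHA and 1.66 (SE 0.072, adjusted p = 5.04e-10) in Smarcb1-RE, or 1.90-fold and 3.16-fold. Smarcb1-RE exceeded SAHA by 0.74 (SE 0.068, adjusted p = 5.40e-07).

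Genes of chromosome 4 as a whole were higher in Smarcb1-RE cells, and Ddx58 is the only member located there. The 838 tested genes of chromosome 4 had a median log2 fold change of 0.36 in Smarcb1-RE against control, beside -0.01 on the other autosomes, and 57.4% of them were called higher. In SAHA against control the chromosome 4 median was -0.04. The log2 fold change of Ddx58 exceeded the chromosome 4 median by 0.96 in SAHA, by 1.30 in Smarcb1-RE and by 0.35 in Smarcb1-RE against SAHA. The part of the chromosome-wide shift in the level of Ddx58 was not tested.

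Ifih1 (MDA5, which recognizes long double-stranded RNA; ENSMUSG00000026896, chromosome 2, 62595798 to 62646255, minus strand) was the most abundant member and moved in opposite directions in the treated groups. Its level was 399, 424 and 406 CPM in control, 527, 543 and 565 CPM in SAHA and 352, 338 and 343 CPM in Smarcb1-RE libraries. All SAHA libraries lay above and all Smarcb1-RE libraries below the control range. The change came to 0.41 on the log2 scale (SE 0.041, adjusted p = 1.80e-06, edgeR) in SAHA and -0.25 (SE 0.041, adjusted p = 9.87e-05) in Smarcb1-RE, and the direct difference of Smarcb1-RE from SAHA was -0.66 (SE 0.041, adjusted p = 1.26e-08). The decrease in Smarcb1-RE depended on the normalization, since with library totals alone it was -0.09 (adjusted p = 0.0539).

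Because Ddx58 and Ifih1 were affected to different extents, the ratio of their levels within a library, which no scaling of the library can alter, was also computed after the values had been seen. Per kilobase of exon, Ifih1 exceeded Ddx58 by 15.6, 14.0 and 15.0 times in the control libraries (mean 14.9 ± 0.829, SD, n = 3). The ratio was 11.2, 9.86 and 10.2 in SAHA libraries (10.4 ± 0.699) and 4.14, 3.75 and 3.94 in Smarcb1-RE libraries (3.94 ± 0.194). The 3 groups did not overlap, and the transcript pool of these paired receptors shifted towards Ddx58 in both treated groups, further in Smarcb1-RE cells.

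Dhx58 encodes LGP2, a relative of both helicases that binds RNA but lacks the signalling domains and modulates the other receptors (ENSMUSG00000017830, chromosome 11, 100694884 to 100704271, minus strand). It was present at 37.3, 34.6 and 32.3 CPM in control, 57.7, 63.2 and 65.3 CPM in SAHA and 47.9, 43.7 and 46.1 CPM in Smarcb1-RE libraries, without overlap between groups and with SAHA the highest. In log2 fold change this was 0.84 (SE 0.064, adjusted p = 1.82e-07, edgeR) in SAHA and 0.40 (SE 0.065, adjusted p = 8.68e-05) in Smarcb1-RE. Smarcb1-RE was lower than SAHA by -0.43 on the log2 scale (SE 0.062, adjusted p = 3.37e-05). RIG-I-like receptors therefore differed in their order of groups, Ddx58 being highest in Smarcb1-RE cells and Ifih1 and Dhx58 in SAHA-treated cells.

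Tlr3, the endosomal receptor for double-stranded RNA that signals through Ticam1 (TRIF), was weakly expressed (ENSMUSG00000031639, chromosome 8, 45395665 to 45411080, minus strand). Its level was 2.85, 3.47 and 4.24 CPM in control libraries, equal to 67, 82 and 103 counts. It was 9.14, 9.5 and 9.82 CPM in SAHA and 8.53, 7.13 and 7.85 CPM in Smarcb1-RE libraries, so that every treated library lay above every control library. Its log2 fold change was 1.43 (SE 0.13, adjusted p = 1.01e-06, edgeR) in SAHA and 1.15 (SE 0.13, adjusted p = 4.52e-06) in Smarcb1-RE. The difference of Smarcb1-RE from SAHA was -0.28 (95% interval -0.54 to -0.01, adjusted p = 0.0557) and did not pass, although the libraries of these groups did not overlap. It passed without control replicate 1, control replicate 3 or Smarcb1-RE replicate 1, with values of -0.28, -0.29 and -0.35 (adjusted p = 0.0193, 0.0237 and 0.0436).

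The adaptor gene Ticam1 stood at 23.2 ± 1.91 CPM in control, 34.7 ± 2.19 CPM in SAHA and 24.5 ± 1.28 CPM in Smarcb1-RE (SD, n = 3 each). It was higher in SAHA by 0.58 (SE 0.070, adjusted p = 1.01e-05, edgeR), whereas the difference in Smarcb1-RE was 0.08 (95% interval -0.08 to 0.24, adjusted p = 0.315). Receptor and adaptor of this endosomal arm were thus both higher in SAHA, and in Smarcb1-RE only the receptor passed the test. The direct comparison of Smarcb1-RE with SAHA gave -0.50 for Ticam1 (adjusted p = 2.70e-05).

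Zbp1 recognizes nucleic acids in the Z conformation and binds the kinase Ripk3, which can lead to necroptosis through Mlkl (ENSMUSG00000027514, chromosome 2, 173206612 to 173218923, minus strand). Its level was 55.0, 54.7 and 52.4 CPM in control, 65.6, 71.8 and 71.9 CPM in SAHA and 66.3, 65.3 and 66.7 CPM in Smarcb1-RE libraries. Both treated groups lay above control and overlapped each other. On the log2 scale the change was 0.37 (SE 0.046, adjusted p = 1.39e-05, edgeR) in SAHA and 0.29 (SE 0.046, adjusted p = 7.86e-05) in Smarcb1-RE, and the difference between the treated groups was -0.08 (95% interval -0.18 to 0.02, adjusted p = 0.135), or 0.08 with library totals only.

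The kinase partner of Zbp1 moved the other way. Ripk3 was lower in both treated groups, with 45.1 ± 2.10 CPM in control, 24.5 ± 1.11 CPM in SAHA (log2 fold change -0.88, SE 0.052, adjusted p = 2.30e-08, edgeR) and 28.9 ± 0.366 CPM in Smarcb1-RE (-0.64, SE 0.051, adjusted p = 1.30e-07). Mlkl, which forms the membrane pore of necroptosis, was higher in Smarcb1-RE by 1.67 (SE 0.14, adjusted p = 1.67e-07), at 11.2 ± 0.361 CPM beside 3.53 ± 0.675 CPM in control. In SAHA the difference of Mlkl was 0.12 (95% interval -0.21 to 0.44, adjusted p = 0.512). Casp8, whose protease restrains necroptosis, was lower in SAHA (-0.40, adjusted p = 2.21e-06) and in Smarcb1-RE (-0.55, adjusted p = 5.64e-08).

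Mavs, the mitochondrial adaptor on which RIG-I and MDA5 converge (ENSMUSG00000037523, chromosome 2, 131234063 to 131248025, plus strand), was the member lowered most in Smarcb1-RE cells. Its level was 40.4, 43.4 and 44.2 CPM in control, 36.3, 40.0 and 40.8 CPM in SAHA and 31.6, 31.5 and 32.9 CPM in Smarcb1-RE libraries. Smarcb1-RE libraries lay below all others, and SAHA and control overlapped. The log2 fold change was -0.41 (SE 0.056, adjusted p = 1.88e-05, edgeR) in Smarcb1-RE and -0.13 (95% interval -0.25 to -0.01, adjusted p = 0.0582) in SAHA. The SAHA value passed without control replicate 1 (-0.17, adjusted p = 0.0121) and without SAHA replicate 3 (-0.16, adjusted p = 0.0409). Against SAHA, Smarcb1-RE differed by -0.29 (SE 0.056, adjusted p = 0.0005), and by -0.13 (adjusted p = 0.0638) when only library totals were used.

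Tmem173 encodes STING, the adaptor of the cytosolic DNA sensor cGAS, and was close to absent from T15 cells. Its counts were 3, 4 and 1 in control, 1, 3 and 6 with SAHA, and 3, 4 and 3 in Smarcb1-RE libraries, at or near the floor of 3 counts, and no fold change is given. A change was not detectable at this depth. The gene of cGAS itself, Mb21d1, was expressed at 42.0 ± 2.99 CPM in control, 44.6 ± 0.712 CPM in SAHA and 33.4 ± 2.55 CPM in Smarcb1-RE. It was lower in Smarcb1-RE by -0.33 on the log2 scale (SE 0.064, adjusted p = 0.000387, edgeR), and the difference in SAHA was 0.08 (95% interval -0.05 to 0.22, adjusted p = 0.249).

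Eif2ak2 encodes PKR, a kinase that is activated by double-stranded RNA and halts translation by phosphorylating an initiation factor (ENSMUSG00000024079, chromosome 17, 78852564 to 78882573, minus strand). It was present at 66.9, 67.9 and 68.6 CPM in control, 94.7, 110 and 104 CPM in SAHA and 73.4, 78.0 and 78.5 CPM in Smarcb1-RE libraries. The groups did not overlap, with SAHA the highest. Eif2ak2 had a log2 fold change of 0.61 (SE 0.054, adjusted p = 7.89e-07, edgeR) in SAHA and 0.18 (SE 0.055, adjusted p = 0.0104) in Smarcb1-RE, and the direct difference was -0.43 (SE 0.054, adjusted p = 1.06e-05).

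Adar encodes ADAR1, which edits adenosine to inosine in double-stranded RNA and so keeps endogenous transcripts from activating MDA5 and PKR (ENSMUSG00000027951, chromosome 3, 89715022 to 89753446, plus strand). Its level was 121, 130 and 135 CPM in control, 130, 141 and 140 CPM in SAHA and 134, 141 and 137 CPM in Smarcb1-RE libraries, and the groups overlapped. The log2 fold change was 0.09 in SAHA (95% interval -0.02 to 0.19, adjusted p = 0.133, edgeR) and 0.09 in Smarcb1-RE (95% interval -0.02 to 0.20, adjusted p = 0.108), and the intervals leave room for changes up to these bounds. The treated groups differed from each other by 0.0032 (95% interval -0.10 to 0.11, adjusted p = 0.955). The interferon-inducible and constitutive isoforms of Adar could not be told apart in counts per gene, and Chrnb2, with 204 to 433 counts, overlaps the span of Adar on the opposite strand.

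**Figure D2:**
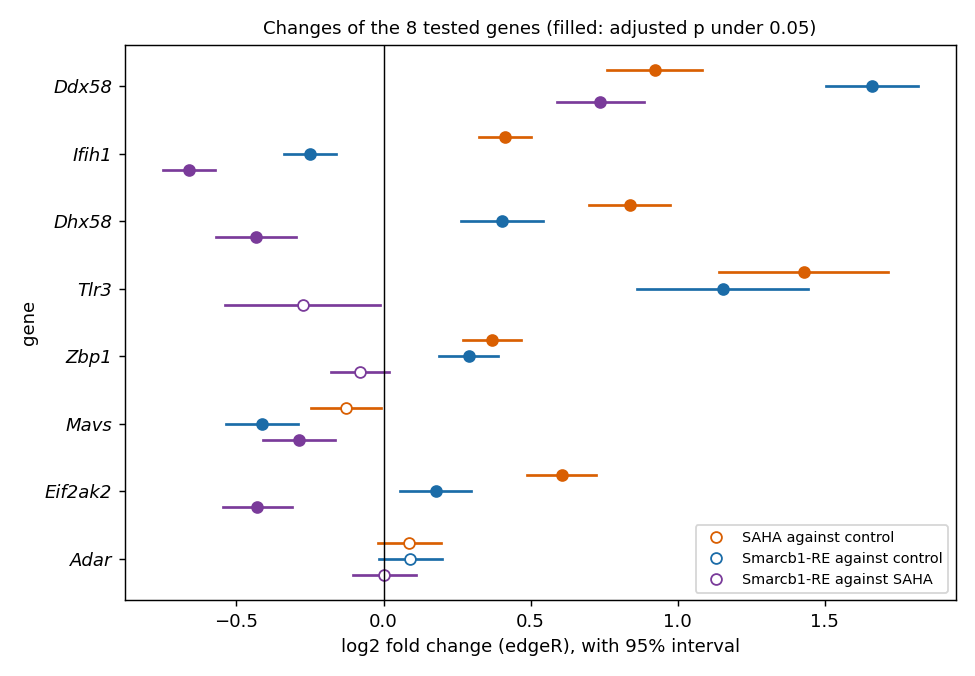
Log2 fold change with its 95% interval (horizontal axis) for the 8 tested genes (vertical axis) in SAHA against control (orange), Smarcb1-RE against control (blue) and Smarcb1-RE against SAHA (purple). Filled points have an adjusted p under 0.05, open points do not. The interval of Ifih1 lies above 0 in SAHA and below 0 in Smarcb1-RE (-0.09 and not called with library totals only), and all 3 points of Adar are open and near 0.

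Levels can be compared between genes only per length of exon. In control cells Ifih1 was the highest at 50.2 ± 1.54 CPM per kb, followed by Adar (15.9 ± 0.864), Zbp1 (15.3 ± 0.400), Eif2ak2 (13.3 ± 0.165), Mavs (12.7 ± 0.601), Dhx58 (10.6 ± 0.773), Ddx58 (3.39 ± 0.296), Tlr3 (0.675 ± 0.133) and Tmem173 (0.0411 ± 0.0238 CPM per kb, SD, n = 3). The libraries of Adar and Zbp1 overlapped, as did those of Eif2ak2 and Mavs, and all other neighbours in this order were apart. Among the members, the cytosolic sensor of long double-stranded RNA thus had the largest transcript pool in control cells, and STING the smallest.

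In SAHA libraries Ifih1 stayed first at 66.7 ± 2.30 CPM per kb. Eif2ak2 (20.2 ± 1.53), Zbp1 (19.8 ± 1.02) and Dhx58 (19 ± 1.2) came next, each overlapping its neighbour, ahead of Adar (16.9 ± 0.769), Mavs (11.7 ± 0.714), Ddx58 (6.42 ± 0.576), Tlr3 (1.82 ± 0.0653) and Tmem173. In Smarcb1-RE libraries Ifih1 was first with a lower level of 42.2 ± 0.846 CPM per kb, and Ddx58, at 10.7 ± 0.315, had passed Mavs, at 9.57 ± 0.242. Between them stood Zbp1 (18.7 ± 0.200), Adar (16.9 ± 0.427), Eif2ak2 (15.0 ± 0.552) and Dhx58 (14.0 ± 0.647), of which the last pair overlapped. Smarcb1-RE was the only group in which RIG-I transcripts per kb outnumbered those of its adaptor.

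**Figure D3:**
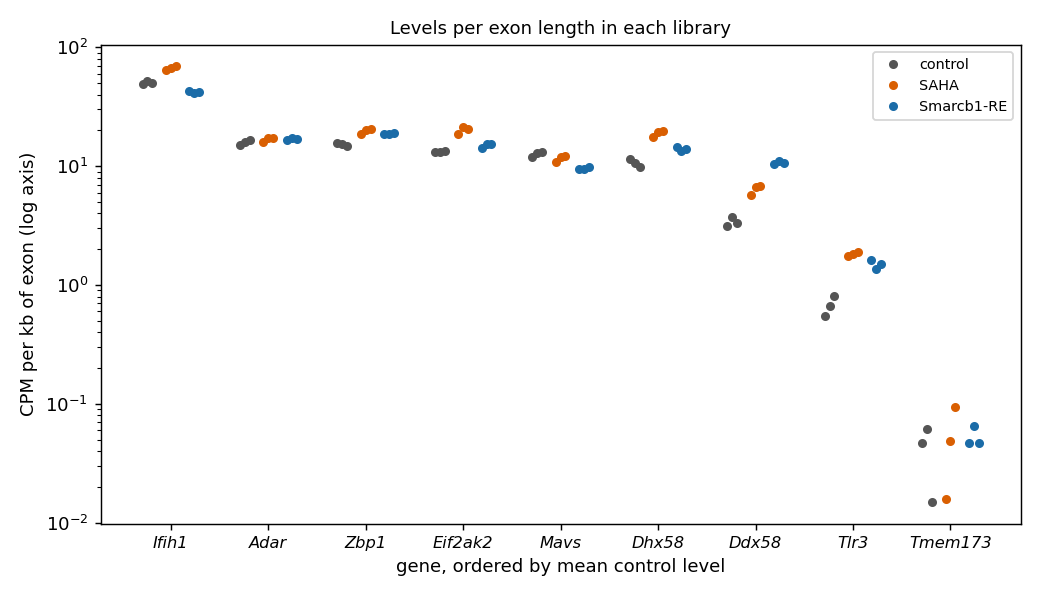
Level per kilobase of exon (CPM per kb, log axis) of each gene in each of the 9 libraries, with genes ordered by their mean in control. Ifih1 is the highest gene in every library, and Tmem173 is the lowest, under 0.1 CPM per kb.

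Over the 9 libraries the members differed in their patterns. As a description with no test, since 3 groups of 3 libraries shape every such value, Pearson's r of log2 CPM was -0.299 between Ddx58 and Ifih1, 0.625 between Ifih1 and Dhx58, 0.777 between Ddx58 and Tlr3 and -0.876 between Ddx58 and Mavs. The genes nearest in pattern to Ddx58 were Tfdp2 and Crybg1 (r = 0.997 each), and those nearest to Ifih1 were Tmem123 (0.999), Mylpf and Rtn3 (0.996 each). Larp1b (0.996) was nearest to Dhx58, Aph1b (0.997) to Tlr3, Zfp949 (0.995) to Zbp1, Git1 (0.992) to Mavs, Cux2, Rnf103 and Zmym5 (0.993 for each) to Eif2ak2 and Nkiras2 (0.968) to Adar.

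Among 12 other RNA sensors and their cofactors, 9 were tested. In SAHA 2 were higher and 2 lower (median log2 fold change 0.03), beside 32.6% and 34.3% of all genes. In Smarcb1-RE 4 were higher and 3 lower (median -0.02), beside 39.2% and 38.6% of all genes. Trim25, a ubiquitin ligase that activates RIG-I, was higher in both, at 68.9 ± 4.14 CPM in control, 136 ± 6.20 CPM in SAHA (0.98, SE 0.055, adjusted p = 1.56e-08, edgeR) and 96.4 ± 4.72 CPM in Smarcb1-RE (0.48, SE 0.056, adjusted p = 4.22e-06). Other helpers of the same receptor fell in SAHA, namely Rnf135, its other ubiquitin ligase (-0.60, SE 0.070, adjusted p = 7.44e-06), and Zcchc3, an RNA-binding cofactor (-0.94, SE 0.079, adjusted p = 4.31e-07). In Smarcb1-RE Zcchc3 was lower too (-0.41, adjusted p = 0.000264), and Rnf135 gave -0.16 (95% interval -0.30 to -0.01, adjusted p = 0.0505). Ddx60, a helicase linked to RIG-I signalling, was higher in Smarcb1-RE (52.7 ± 1.41 against 16.8 ± 1.25 CPM, 1.65, SE 0.064, adjusted p = 1.87e-10), with a difference in SAHA of 0.04 (95% interval -0.12 to 0.19, adjusted p = 0.669). Nod2 rose most of this list in Smarcb1-RE, from 0.725 ± 0.227 to 5.86 ± 0.397 CPM (3.0, SE 0.20, adjusted p = 2.78e-08), and was also higher in SAHA (1.01, adjusted p = 0.0018), while the RNA helicases Dhx9 (-0.84, SE 0.065, adjusted p = 8.85e-08) and Dhx36 (-0.45, SE 0.036, adjusted p = 1.17e-07) fell there and did not pass the test in SAHA.

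Of 18 other DNA sensors, 15 were tested. In SAHA 3 were higher and 7 lower (median -0.11), beside 32.6% and 34.3% of all genes. In Smarcb1-RE 7 were higher and 8 lower (median -0.25), beside 39.2% and 38.6% of all genes. Ifi203, Ifi204 and Mndal, of the interferon-inducible Ifi200 cluster, rose in both. Ifi203 stood at 67.1 ± 2.93 CPM in control, 112 ± 4.84 CPM in SAHA (0.73, SE 0.048, adjusted p = 5.05e-08, edgeR) and 129 ± 4.02 CPM in Smarcb1-RE (0.94, SE 0.048, adjusted p = 1.98e-09), and Ifi204 and Mndal moved likewise, by 1.01 and 0.63 in SAHA and by 1.6 and 1.00 in Smarcb1-RE. These genes are paralogs that may share reads, so their separate values are uncertain. Among the genes that fell in both were some with other known duties in splicing, DNA repair or chromatin, namely Ddx41 by -0.95 in SAHA and -0.79 in Smarcb1-RE, the Ku subunit gene Xrcc5 by -0.88 and -0.46, and the chromatin protein gene Hmgb2 by -0.78 and -1.07 (log2 scale, all with adjusted p under the threshold). Other DNA repair genes of the list, Prkdc and Rad50, were higher in Smarcb1-RE, by 0.87 and 0.40 (adjusted p = 5.70e-07 and 1.41e-06, edgeR). In SAHA Prkdc was lower (-0.24, adjusted p = 0.0209) and Rad50 did not pass the test.

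All 19 adaptors, kinases and transcription factors downstream of the sensors were tested. In SAHA 8 were higher and 5 lower (median 0.12), beside 32.6% and 34.3% of all genes. In Smarcb1-RE 7 were higher and 8 lower (median 0.05), beside 39.2% and 38.6% of all genes. The transcription factor gene Irf7 rose the most, from 1.64 ± 0.396 CPM in control to 18.6 ± 4.14 CPM in SAHA (3.50, SE 0.19, adjusted p = 1.38e-08, edgeR) and 30.7 ± 1.02 CPM in Smarcb1-RE (4.22, SE 0.19, adjusted p = 5.59e-10). Irf5 rose from 1.15 ± 0.131 to 7.86 ± 1.11 CPM in SAHA (2.77, SE 0.16, adjusted p = 2.36e-08) and to 2.51 ± 0.156 CPM in Smarcb1-RE. The factor and the kinase on which most of these receptors converge gave smaller values, as Irf3 differed by 0.23 in SAHA (adjusted p = 0.00502) and by 0.10 in Smarcb1-RE (95% interval -0.03 to 0.23, adjusted p = 0.148), and the kinase gene Tbk1 by -0.05 (95% interval -0.13 to 0.04, adjusted p = 0.320) and -0.10 (adjusted p = 0.0356). Fadd fell in both, in SAHA by -1.40 (SE 0.078, adjusted p = 1.47e-08) and in Smarcb1-RE by -0.41 (adjusted p = 0.000168), and in Smarcb1-RE the largest decreases were those of Tradd (-1.13, SE 0.058, adjusted p = 2.18e-09) and Myd88 (-0.90, SE 0.052, adjusted p = 5.76e-09). In SAHA Tradd was higher (0.37, adjusted p = 4.66e-05) and Myd88 lower (-0.27, adjusted p = 0.000445). Ticam2, another adaptor of Toll-like receptors, rose in Smarcb1-RE from 0.757 ± 0.200 to 2.65 ± 0.832 CPM (1.80, SE 0.32, adjusted p = 0.000225), with 0.42 in SAHA (95% interval -0.35 to 1.2, adjusted p = 0.309).

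**Figure D4:**
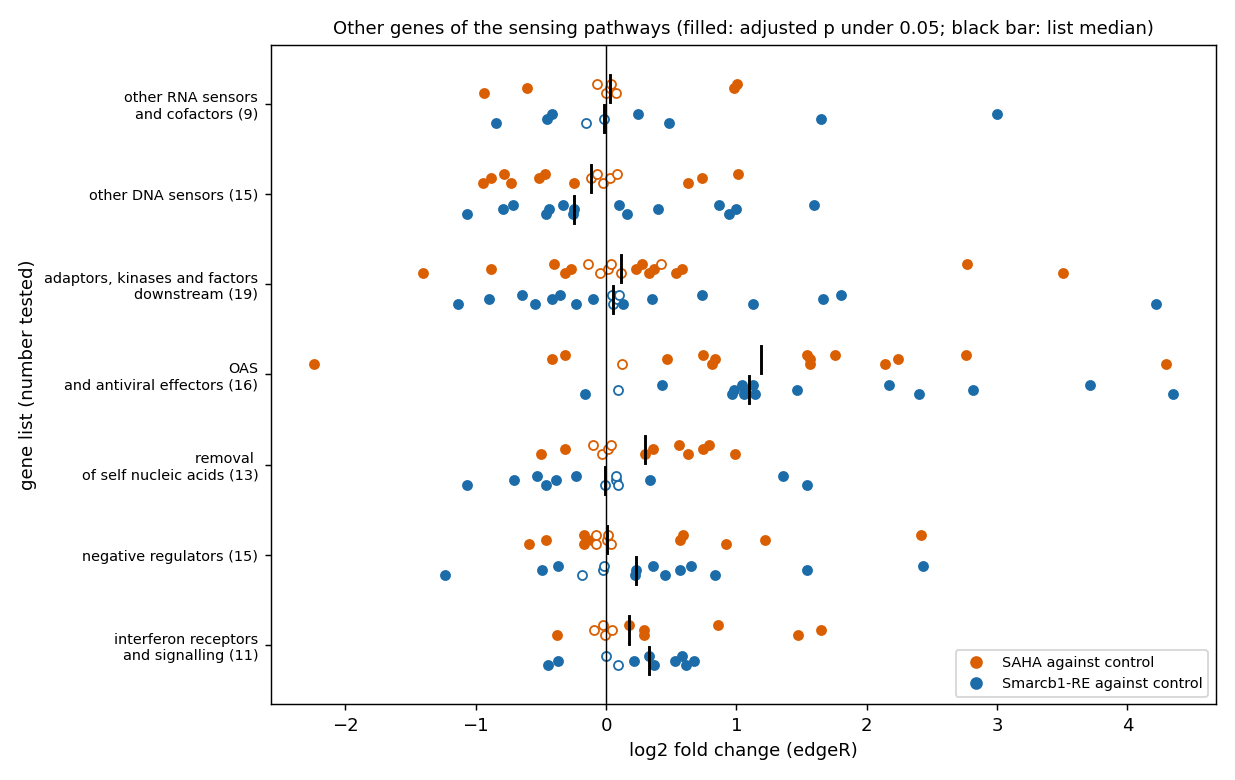
Log2 fold change (horizontal axis) of every tested gene in 7 further lists of the sensing pathways (vertical axis, number tested in brackets), in SAHA (orange) and Smarcb1-RE (blue) against the same control libraries. Filled points have an adjusted p under 0.05 and black bars are list medians, which are 1.19 and 1.09 for the antiviral effectors and between -0.25 and 0.33 for the other lists.

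The antiviral effectors gave the highest medians of the lists, 1.19 in SAHA and 1.09 in Smarcb1-RE. Of 20 listed, 16 passed the count filter, some of them only through the treated libraries, so these medians and the counts that follow lean towards increases. In SAHA 12 were higher and 3 lower, beside 32.6% and 34.3% of all genes. In Smarcb1-RE 14 were higher and 1 lower, beside 39.2% and 38.6% of all genes. Mx2, a GTPase with antiviral activity, had 5, 7 and 1 counts in control, 61, 98 and 95 with SAHA, and 103, 72 and 89 in Smarcb1-RE libraries. Its relative Mx1 had 9, 12 and 11, then 61, 69 and 82, then 151, 131 and 129 counts. Both were near the floor in control cells and far above it in all 6 treated libraries.

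Rsad2 (viperin) rose from 2.20 ± 0.240 CPM in control to 10.4 ± 1.41 CPM in SAHA (2.24, SE 0.12, adjusted p = 1.41e-08, edgeR) and 15.5 ± 0.133 CPM in Smarcb1-RE (2.82, SE 0.12, adjusted p = 4.32e-10). The oligoadenylate synthetase gene Oas3, whose product is activated by double-stranded RNA, rose from 4.21 ± 0.0365 to 12.2 ± 1.16 CPM (1.54) and 22.3 ± 0.963 CPM (2.40). Isg20, an exonuclease that degrades single-stranded RNA, was the gene that differed most in direction: 10.7 ± 1.94 CPM in control, 2.25 ± 0.225 CPM in SAHA (-2.24, SE 0.14, adjusted p = 3.77e-08) and 22.3 ± 0.0608 CPM in Smarcb1-RE (1.06, SE 0.11, adjusted p = 1.10e-06), with a direct difference of 3.31 (adjusted p = 3.07e-10). Ifit2 fell in SAHA (-0.41, SE 0.079, adjusted p = 0.000481) and differed by 0.09 in Smarcb1-RE (95% interval -0.07 to 0.26, adjusted p = 0.282), while Ifit1 rose in both, by 2.14 and 1.47. Bst2 (tetherin), which is also a plasmacytoid dendritic cell marker, was higher in SAHA (0.47, adjusted p = 5.87e-06) and lower in Smarcb1-RE (-0.16, adjusted p = 0.0162). With library totals alone the median of all genes in Smarcb1-RE against control was 0.17 in place of 0.014, so this decrease may depend on the scaling. Of the other 3 markers listed for plasmacytoid dendritic cells, Siglech was at or under 3 counts throughout, Ccr9 did not pass the test in either comparison with control, and Tcf4 rose from 0.571 ± 0.187 CPM to 3.44 ± 0.692 CPM in SAHA (2.57, adjusted p = 3.52e-06) and 2.77 ± 0.579 CPM in Smarcb1-RE (2.26, adjusted p = 8.13e-06). The summed level of these 4 genes was 148 to 157 CPM in control, 183 to 184 CPM in SAHA and 147 to 154 CPM in Smarcb1-RE libraries, and their part in the results was not tested.

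Of 13 genes that remove self nucleic acids, all tested, 7 were higher and 2 lower in SAHA (median 0.30), beside 32.6% and 34.3% of all genes. In Smarcb1-RE 3 were higher and 6 lower (median -0.0044), beside 39.2% and 38.6% of all genes. Trex1, the cytosolic DNA exonuclease, stood at 52.1 ± 3.52 CPM in control, 76.9 ± 6.56 CPM in SAHA (0.56, SE 0.066, adjusted p = 8.71e-06, edgeR) and 31.9 ± 1.41 CPM in Smarcb1-RE (-0.71, SE 0.071, adjusted p = 1.16e-06), and the direct difference was -1.27 (SE 0.070, adjusted p = 4.42e-09). Samhd1, which degrades nucleotides needed for reverse transcription, rose in SAHA from 219 ± 10.9 to 435 ± 29.4 CPM (0.99, SE 0.053, adjusted p = 1.08e-08), beside -0.0044 in Smarcb1-RE (95% interval -0.12 to 0.11, adjusted p = 0.943). The subunits of RNase H2, which cuts RNA in RNA-DNA hybrids, were not alike. Rnaseh2a was higher in SAHA (0.79, adjusted p = 2.05e-08), with 0.07 in Smarcb1-RE (95% interval -0.03 to 0.18, adjusted p = 0.166). Rnaseh2b was lower in both (-0.50 and -0.46), at 91.8 ± 8.55 CPM in control, 65.1 ± 1.19 CPM in SAHA and 66.8 ± 0.623 CPM in Smarcb1-RE. Rnaseh2c was higher in SAHA (0.36, adjusted p = 0.00032) and lower in Smarcb1-RE (-1.06, adjusted p = 2.71e-08). Ttc37, a part of the SKI complex of RNA decay, was lower in both (-0.31 and -0.38). Among DNases, Dnase1l3 rose in Smarcb1-RE from 66.4 ± 5.43 to 194 ± 5.16 CPM (1.54, SE 0.055, adjusted p = 9.29e-11), with 0.02 in SAHA (95% interval -0.11 to 0.14, adjusted p = 0.805), and Dnase2a rose in both (0.74 and 1.35). Adarb1, which encodes the other catalytic editor ADAR2, was higher in both, by 0.30 (SE 0.078, adjusted p = 0.00453) in SAHA and by 0.34 (SE 0.078, adjusted p = 0.00155) in Smarcb1-RE.

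Among 15 negative regulators, all tested, 5 were higher and 5 lower in SAHA (median 0.0094), beside 32.6% and 34.3% of all genes. In Smarcb1-RE 9 were higher and 3 lower (median 0.23), beside 39.2% and 38.6% of all genes. Usp18, which removes Isg15 from proteins and damps the interferon receptor, rose from 0.573 ± 0.134 CPM to 3.08 ± 0.972 CPM in SAHA (2.41, SE 0.28, adjusted p = 7.30e-06, edgeR) and 3.12 ± 0.293 CPM in Smarcb1-RE (2.43, SE 0.28, adjusted p = 4.09e-06). Its substrate gene Isg15 rose too, by 1.57 and 0.98. Nlrc5, which also drives MHC class I genes, stood at 125 ± 7.45, 185 ± 9.45 and 366 ± 4.23 CPM in control, SAHA and Smarcb1-RE, and Trim30a at 107 ± 1.2, 249 ± 18.6 and 168 ± 4.50 CPM, each higher in both treated groups. Tnfaip3 (A20) was higher in SAHA (0.92, SE 0.062, adjusted p = 6.65e-08) and in Smarcb1-RE (0.22, adjusted p = 0.00797). Nlrx1, a mitochondrial protein described as an inhibitor of Mavs, fell in SAHA (-0.59, SE 0.072, adjusted p = 1.15e-05) and rose in Smarcb1-RE (0.45, SE 0.067, adjusted p = 4.45e-05). Socs1, the inhibitor of JAK kinases, fell in both, by -0.46 and -1.24, as did Usp15, by -0.17 and -0.49. Nlrc3 rose in Smarcb1-RE by 0.83 (adjusted p = 0.00055), with 0.01 in SAHA (95% interval -0.37 to 0.40, adjusted p = 0.958).

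Transcripts of the interferons to which the sensors lead were close to absent. Of 20 type I and type III interferon genes, 15 had 0 counts in every library, 19 had at most 1 count in any library, and Ifnb1 was among these. Only Ifnz exceeded the floor of 3 counts, with 3, 3 and 1 counts in control, 2, 9 and 5 with SAHA, and 7, 5 and 10 in Smarcb1-RE libraries, too few to be tested. Type II interferon behaved otherwise, since Ifng, a product of activated T cells, stood at 23.4 ± 2.0 CPM in control, 175 ± 8.80 CPM in SAHA and 25.1 ± 1.33 CPM in Smarcb1-RE. It was 7.47-fold higher in SAHA (2.90, SE 0.064, adjusted p = 5.37e-11, edgeR), with a difference in Smarcb1-RE of 0.10 (95% interval -0.05 to 0.26, adjusted p = 0.199).

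The 11 receptor and signalling genes that read interferons were all tested. In SAHA 6 were higher and 1 lower (median 0.17), beside 32.6% and 34.3% of all genes. In Smarcb1-RE 7 were higher and 2 lower (median 0.33), beside 39.2% and 38.6% of all genes. Stat2, part of the factor that binds the ISRE, rose from 53.7 ± 2.34 CPM to 169 ± 20.4 CPM in SAHA (1.65, SE 0.077, adjusted p = 4.50e-09, edgeR) and 85.6 ± 3.48 CPM in Smarcb1-RE (0.67, SE 0.078, adjusted p = 4.64e-06). Irf9, its DNA-binding part, was higher in both, by 0.29 and 0.59. Among receptors, Ifnlr1 rose by 1.47 in SAHA and 0.61 in Smarcb1-RE, Ifngr1 by 0.86 and 0.37, and Ifngr2 fell in Smarcb1-RE by -0.45 (adjusted p = 0.00146) and Il10rb in SAHA by -0.38 (adjusted p = 0.00157), each without passing the test in the other comparison with control.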

How the data were processed

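Total RNA of 9 T15 libraries was sequenced with a directional kit. The table deposited by the authors holds estimated counts for each Ensembl gene and library without normalization, of which 52.4% of the non-zero values carried decimals. The submitters' processing notes name FastQC 0.11.8, MultiQC 1.7, Salmon 0.14.1, DESeq2 1.22.2 and GRCm38, without role or order. Reads shared by paralogs were divided by that quantification, so their counts are uncertain. Names, positions and exon lengths came from GENCODE M21, which held 99.5% of identifiers.

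Counts were rounded, filtered (filterByExpr, minimum count 10, leaving 13697 genes) and fitted in 1 model of 3 groups with edgeR 4.0.16 in R 4.3.3 (TMM, quasi-likelihood test, Benjamini-Hochberg adjusted p under 0.05). Standard errors were derived from the F statistic, and 95% intervals use its total degrees of freedom, residual plus prior. Alternatives were DESeq2 1.42.0, other scalings and filters, separate fits, a replicate block, stricter thresholds, thinning and leaving out each library. The procedure was tested on simulated counts with a common dispersion and few changed genes. There 6.6% of the calls in SAHA and 7.2% in Smarcb1-RE against control were false. Of true log2 changes of 0.58, 73.9% and 78.3% were recovered. Far more genes were called in the real data, so these shares may not hold there.

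The members and all lists were chosen with earlier results of these data known. Named were all members and, per further list and comparison with control, up to 3 higher and 2 lower genes with the largest change among called genes averaging at least 1 CPM. Casp8, Irf3, Tbk1, Mb21d1, Oas3, Ifit1, Isg15, Tcf4, Ccr9, Ebf1, Cd68, Prkdc, Rad50 and second values of named genes were added after their values were seen. A few genes of the lists are counted but not reported here by name.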

Additional observations from a re-analysis of the deposited data

How the results depend on the processing

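Across the alternatives, 415 of 456 member values kept their direction and their side of the threshold, 14 gained a call, 18 lost one and 9, none of them called, changed sign. With library totals only, 1 member was lower in Smarcb1-RE than control (Mavs, as Ifih1 gave -0.09, adjusted p = 0.0539), 2 were higher in Smarcb1-RE than SAHA (Ddx58 and Adar, the latter at 0.16, adjusted p = 0.0142), Adar also passed against control (0.25, adjusted p = 0.000873), and Zbp1 changed sign against SAHA (0.0801). Mavs was the 1 member called lower in SAHA without a filter on low counts (-0.15, adjusted p = 0.04995) and with the replicate block (-0.13, adjusted p = 0.0347), and leaving out 1 library gave 0 to 1 such members. The replicate numbers share no origin in the labels, deviations of libraries with the same number correlated by -0.003 on average, and the block changed no other member call. Adar in Smarcb1-RE against SAHA changed sign with DESeq2 (-0.0083), with median-ratio factors (-0.0083), without a filter (-0.0055) and when 1 library was left out (-0.0466 to 0.0129), and it passed with at least 10 counts in every library in SAHA (0.12, adjusted p = 0.0376) and Smarcb1-RE (0.15, adjusted p = 0.0129). Tlr3 in Smarcb1-RE against SAHA passed with median-ratio factors (-0.29, adjusted p = 0.0485) and in a separate fit to each pair of groups (-0.28, adjusted p = 0.0151), Eif2ak2 in Smarcb1-RE missed an adjusted p under 0.01, and Zbp1 passed against SAHA without SAHA replicate 1 (-0.13, adjusted p = 0.0129). Requiring an absolute log2 fold change of at least 1 left 1349 genes higher and 322 lower in SAHA with 1 member higher, 2309 and 928 in Smarcb1-RE with 2 members higher and 0 lower, and 1582 and 1124 in Smarcb1-RE against SAHA with 0 members higher and 0 lower, by construction. Other causes were not tested. Tmem173 lay too near the floor for a change to be detectable at this depth, and 3 libraries per group limit the precision of the small differences of Adar, Mavs and Zbp1.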
